A study of Mus musculus with 6 samples.

Results

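The 9 genes described here are tumor necrosis factor (Tnf) with its receptors Tnfrsf1a and Tnfrsf1b, the interleukin-1 ligands Il1a and Il1b with their antagonist Il1rn and their receptor Il1r1, and the cytokines Il18 and Il10. They were chosen by symbol from the 33696 genes of the count tables, and all 9 were found once. Single cells were prepared from kidneys of male C57BL/6 mice aged 8 to 10 weeks, with 1 library for each mouse and 3 mice in each group. The DOCA-salt mice had the left kidney removed 1 week before a 50 mg pellet of deoxycorticosterone acetate (DOCA), a mineralocorticoid, was implanted, and then drank 1% NaCl for 21 days. The sham mice had a sham operation and normal water without a pellet, so the loss of a kidney and DOCA-salt cannot be told apart. Nothing beyond 1 library per mouse separates the replicates, and p-values measure the spread between these 6 mice, in the gene tests together with a spread shared over genes.

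TNF and IL-1 are early signals of inflammation that are released mainly by myeloid cells. TNF acts through TNFR1 (Tnfrsf1a), which most cells carry, and TNFR2 (Tnfrsf1b), which is mostly found on leukocytes, and IL-1α and IL-1β act through IL-1R1, and both pathways lead to NF-kappaB. IL-1 receptor antagonist (Il1rn) occupies IL-1R1 without signalling, IL-18 is cleaved by caspase-1 as IL-1β is, and IL-10 restrains macrophage cytokine production.

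The 6 libraries held 93172739 to 137819127 unique molecular identifiers (UMIs, 1 per captured transcript), and 7701 to 9933 cells per mouse passed the filters. Any pair of libraries shared 33 to 69 cell barcodes. Cells were clustered without the 9 genes and the pathway lists used below, and clusters were named from fixed markers. Macrophages numbered 160, 133 and 137 in the sham mice and 432, 688 and 735 in the DOCA-salt mice, or 1.58 ± 0.178% and 6.55 ± 1.47% of cells (mean ± SD, n = 3). Fibroblasts numbered 24, 6 and 9 in the sham mice and 217, 296 and 306 in the DOCA-salt mice. The 8 macrophage markers were all detected in the macrophages, with a summed level of 11232 to 11948 CPM in the sham mice and 13093 to 13991 CPM in the DOCA-salt mice. CPM are UMIs of a gene per 1000000 UMIs of the cells summed in a mouse.

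In the genome (GRCm39, GENCODE annotation), Il1a lies on chromosome 2 at 129140291 to 129152098 and Il1b on the same chromosome and strand at 129206490 to 129213059, while Il1rn lies at 24226865 to 24241506 on the other strand. Tnf was annotated on chromosome 17 at 35418357 to 35420983, Tnfrsf1a on chromosome 6 at 125325566 to 125339632, Tnfrsf1b on chromosome 4 at 144938938 to 144973477 and Il18 on chromosome 9 at 50466081 to 50493633. Chromosome 1 holds Il1r1 at 40264174 to 40356417 and Il10 at 130947581 to 130952711. Tnf, Il10 and Il1rn overlap no other annotated gene. Il1a, Il1b, Il18, Tnfrsf1a and Tnfrsf1b overlap genes on the opposite strand, among them Il1bos at Il1b, and Tnfrsf1b and Il1r1 each overlap a predicted gene on their own strand, so UMIs of these genes are uncertain to the extent that counting could split them.

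The promoters of Tnf, Il1b and Il1rn are shown because Tnf and Il1b fell and Il1rn, which opposes Il1b, rose in macrophages below. The 150 bases before the RefSeq start were placed in GRCm39 by an exact match and are written 5′ to 3′ on the gene's strand. Capitals mark TATAAA, the TATA box, and TGANTCA, an AP-1 motif.
Tnf promoter, chr17:35420984-35421133, minus strand: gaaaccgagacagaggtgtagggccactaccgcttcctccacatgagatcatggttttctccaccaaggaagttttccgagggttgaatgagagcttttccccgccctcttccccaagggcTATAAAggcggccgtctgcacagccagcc
Il1b promoter, chr2:129213060-129213209, minus strand: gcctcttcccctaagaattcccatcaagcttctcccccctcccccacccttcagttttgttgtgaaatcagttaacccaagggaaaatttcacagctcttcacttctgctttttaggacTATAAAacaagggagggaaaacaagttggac
Il1rn promoter, chr2:24226722-24226871, plus strand: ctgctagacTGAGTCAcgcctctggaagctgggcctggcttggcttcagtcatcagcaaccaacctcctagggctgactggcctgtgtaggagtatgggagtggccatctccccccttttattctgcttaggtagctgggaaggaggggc
The table of promoters (RefSeq, GRCm38.p6) had 11 windows of 300 bases for 8 of the 9 genes, 3 of them for Il1rn, whose most upstream window is shown. TATAAA on the gene's strand began at -29 in Tnf, -31 in Il1b and -32 in Il1a, counted from the start, and 13.6% of all 32851 windows held TATAAA on either strand. TATAAA was also found on the opposite strand in a window of Il1rn, from 15, and in that of Il18, from -175. TGANTCA began at -141 in Il1rn and at -12 in Il1a, with 7.81% of all windows holding it. Of the other motifs searched on both strands, the NF-kappaB consensus was found in a window of Il1r1 (8.46% of all windows), GAGGAA in Tnf, Il1a and Tnfrsf1b (28.3%), and TTGCNNAA in a window of Il1r1 (10.8%). No searched motif overlapped another in the promoters shown. A match is a description of letters and not of a bound site.

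Summed over all cells, the whole suspension from DOCA-salt mice held more transcripts of 7 of the 9 genes: both IL-1 ligands, Tnf, the antagonist and all 3 receptors. Il1a and Il1rn changed most, and Il18 and Il10 did not pass the test. The test was edgeR's quasi-likelihood F test with p adjusted by the Benjamini-Hochberg method over all genes and a threshold of 0.05, and 11.5% of the 19658 genes tested rose in the same comparison (17.2% in either direction). In such sums, fewer cells of a type and less RNA per cell cannot be told apart.

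Among the ligands, Tnf reached 7.79, 7.84 and 8.02 CPM in the sham mice and 9.74, 16.8 and 21.7 CPM in the DOCA-salt mice. The sham mice were nearly alike, and the DOCA-salt mice were all higher but spread widely. The log2 change was 0.90 (standard error 0.24, adjusted p = 0.0374). Il1b, the secreted IL-1, reached 15.5, 19.5 and 18.8 CPM against 31.4, 50.4 and 60.5 CPM, with no overlap (36% of all genes did not overlap), and rose by 1.28 on the log2 scale (0.21, adjusted p = 0.00579). Il1a, which also acts as an alarmin when cells die, was counted 22, 20 and 13 times in the sham mice and 201, 302 and 248 times in the DOCA-salt mice. Every DOCA-salt mouse was far above every sham mouse for Il1a, and its log2 change was 3.41 (0.25, adjusted p = 0.000272). Il18 lay at 3.62 ± 0.266 CPM in sham and 4.10 ± 0.449 CPM in DOCA-salt mice (n = 3 each), with overlapping groups and a log2 difference of 0.06 (0.15, adjusted p = 0.823). Il10 had 0.877 ± 0.184 and 1.55 ± 0.612 CPM, again overlapping, with a log2 difference of 0.69 (0.30, adjusted p = 0.160).

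The antagonist Il1rn was counted 4, 14 and 15 times in the sham mice and 122, 118 and 130 times in the DOCA-salt mice. The groups did not overlap, and Il1rn rose by 3.10 on the log2 scale (0.45, adjusted p = 0.00345). Of the receptors, Tnfrsf1a went from 19.9, 24.3 and 20.4 CPM to 37.3, 42.2 and 43.8 CPM, a log2 change of 0.82 (0.10, adjusted p = 0.00200). Tnfrsf1b went from 1.96, 2.62 and 2.33 CPM to 4.69, 6.19 and 7.98 CPM, a log2 change of 1.33 (0.21, adjusted p = 0.00482). Il1r1 went from 5.54, 6.43 and 6.94 CPM to 9.17, 12.6 and 15.7 CPM, a log2 change of 0.86 (0.19, adjusted p = 0.0185). For each of the 3 receptors the lowest DOCA-salt mouse was above the highest sham mouse. Scaling by library size alone moved the median of all genes by 0.12 on the log2 scale without changing a call among the 9 genes. The call of Tnf was lost without Sham 1, Sham 3, DOCA-salt 2 or DOCA-salt 3 (adjusted p 0.118, 0.0856, 0.0901 and 0.120), and that of Il1r1 without Sham 1 or DOCA-salt 3 (0.0773 and 0.0637).

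Each gene's UMIs came from different cells. Pooled over 3 mice, macrophages held 72.4% (sham) and 70.6% (DOCA-salt) of the Tnf UMIs, and 67.6% and 67.7% of the Il1b UMIs. Macrophages held 60.0% of Il1a UMIs in sham and 79.9% in DOCA-salt mice, although the sham group had only 55 Il1a UMIs in all. For Il10 the tubular cells held 64.4% in sham mice and the macrophages 45.6% in DOCA-salt mice. Tubular cells also held most UMIs of all genes in every mouse, so such shares are not levels. The Il10 level was higher in macrophages in both groups, at 6.14 ± 2.11 CPM in sham and 19.7 ± 3.03 CPM in DOCA-salt mice. Over all tubular cells it was 0.644 ± 0.0317 and 0.518 ± 0.103 CPM. Il18 UMIs were also mostly tubular, at 80.2% (sham) and 51.5% (DOCA-salt), but its level was again higher in macrophages. Macrophages had 31.0 ± 6.51 CPM of Il18 in sham and 33.9 ± 3.82 CPM in DOCA-salt mice. Tubular cells had 3.33 ± 0.380 and 2.68 ± 0.0982 CPM. Il1rn UMIs in DOCA-salt mice came from macrophages (40.5%), tubular cells (22.7%) and neutrophils (19.7%), whose share was 39.3, 2.54 and 16.9% in the 3 mice.

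**Figure D1:**
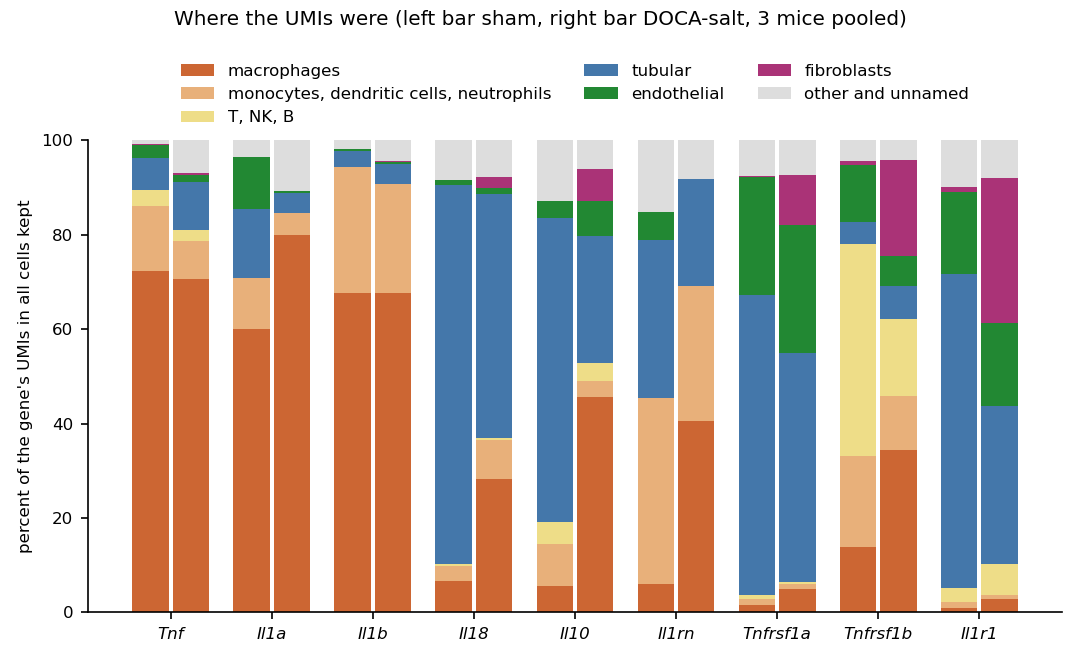
Share of each gene's UMIs by cell type, in percent of the UMIs of that gene over all cells, with 3 mice pooled in each bar and a sham and a DOCA-salt bar for each gene. Macrophages make up most of the Tnf and Il1b bars in both groups (67.6 to 72.4%), tubular cells most of the Il18 bars, and fibroblasts appear in the receptor bars of the DOCA-salt mice (10.7 to 30.7%).

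The receptors were divided otherwise. Tubular cells held 63.5% of Tnfrsf1a UMIs in sham and 48.6% in DOCA-salt mice, and endothelial cells 24.9% and 26.9%. T cells held 30.8% of Tnfrsf1b UMIs in sham mice, and macrophages 34.5% in DOCA-salt mice. Fibroblasts held 1.15% of Il1r1 UMIs in sham and 30.7% in DOCA-salt mice, and for Tnfrsf1b 0.986% and 20.5%. Without the fibroblasts, the sum over all cells no longer gave a call for Il1r1 (log2 0.43, adjusted p = 0.126; over all alternatives 4.2e-04 to 0.126), while Tnfrsf1b still rose (log2 1.09, adjusted p = 0.0113), when 12.7% of all genes were called. Without macrophages all 7 genes were still called, when 14.6% of all genes were, and without any immune cells Il1a was not (log2 1.14, adjusted p = 0.0856; over all alternatives 4.3e-27 to 0.0856), when 14.5% of all genes were.

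The order of cell types also differed between genes. It covers the types with at least 10 cells in every mouse of a group, which leaves out neutrophils (3 to 18 cells per mouse, given at the end) and podocytes in both groups, fibroblasts and urothelial cells in sham and NK cells in DOCA-salt mice. Tnf was highest in macrophages in both groups, at 717.7 ± 19.0 CPM in sham and 314 ± 50.6 CPM in DOCA-salt mice, clear of the dendritic cells and monocytes that followed, which in both groups did not differ from each other beyond the spread between mice. For Il1b the sham order was macrophages (1510 ± 64.2 CPM), dendritic cells (910.4 ± 145 CPM) and monocytes (446.4 ± 209 CPM) without overlap, whereas in DOCA-salt mice the same 3 types overlapped, at means of 923.6, 1088 and 899.9 CPM. Il1a in DOCA-salt mice was highest in macrophages (64.0 ± 8.45 CPM), clear of cycling cells, which came next. Il1rn in DOCA-salt mice had means of 16.0 CPM in macrophages, 15.4 CPM in monocytes and 15 CPM in dendritic cells, with overlapping mice. Tnfrsf1a was highest in monocytes and endothelial cells of sham mice, which overlapped, and in endothelial cells of DOCA-salt mice (165 ± 5.39 CPM), clear of fibroblasts (116 ± 9.01 CPM). Tnfrsf1b was highest in monocytes, at 228 ± 79.3 CPM in sham and 213 ± 39.7 CPM in DOCA-salt mice, overlapping NK and T cells in sham mice and clear of T cells in DOCA-salt mice. Il1r1 was highest in connecting tubule (46.3 ± 8.95 CPM) in sham mice, overlapping T cells and principal cells (the few sham fibroblasts had a mean of 62.0 CPM, from 16 UMIs), and in T cells (127 ± 52.2 CPM) and fibroblasts (95.1 ± 21.6 CPM) in DOCA-salt mice, which overlapped.

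Neutrophils, which were too few to be ranked or tested, had higher means than the first type in that order for several genes. Il1b reached 7812, 4254 and 2863 CPM in sham and 4946, 5328 and 2901 CPM in DOCA-salt neutrophils. Il1rn reached 0, 50.6 and 51.1 CPM in sham and 1349, 59.4 and 1204 CPM in DOCA-salt neutrophils, from 2 and 73 UMIs. In DOCA-salt mice Il1a had 365, 19.8 and 328 CPM there, from 20 UMIs, with DOCA-salt 2 low for both genes and below the macrophages for Il1a. Of the receptors, Tnfrsf1b had 332, 355 and 153 CPM in sham and 365, 297 and 602 CPM in DOCA-salt neutrophils, all 3 of the latter above every monocyte value of DOCA-salt mice. Tnfrsf1a had 169, 178 and 219 CPM in DOCA-salt neutrophils, from 19 UMIs, against a mean of 165 CPM in endothelial cells.

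Within macrophages the direction changed for the main ligands. Tnf and Il1b were lower relative to all macrophage UMIs in DOCA-salt mice, whereas Il1a, Il10 and Il1rn were higher, and 4 genes did not pass the test. These 5 calls of 9 compare with 6.06% of the 9112 genes tested (3.07% higher and 2.99% lower). These sums give levels relative to all macrophage transcripts of a mouse, with the number of macrophages set aside. They do not give the change in each cell or cluster.

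Tnf had 726, 696 and 731 CPM in the macrophages of sham mice and 262, 319 and 363 CPM in those of DOCA-salt mice. The highest DOCA-salt mouse was far below the lowest sham mouse. Tnf fell by 1.27 on the log2 scale (0.16, adjusted p = 1.9e-04). Il1b had 1486, 1461 and 1583 CPM in sham and 965, 883 and 923 CPM in DOCA-salt mice, without overlap, and fell by 0.79 on the log2 scale (0.15, adjusted p = 0.00452). Over all cells the same genes rose, as given above, with more macrophages in every DOCA-salt mouse.

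Il1a had 23.7, 24.3 and 5.77 CPM in sham and 54.3, 70.2 and 67.4 CPM in DOCA-salt macrophages, from 33 and 600 UMIs. The sham mice disagreed among themselves, but all lay below the DOCA-salt mice, and Il1a rose by 1.72 on the log2 scale (0.29, adjusted p = 0.00199). Il10 had 6.98, 3.73 and 7.69 CPM in sham and 17.6, 18.2 and 23.2 CPM in DOCA-salt mice, from 11 and 182 UMIs. The groups did not overlap, and Il10 rose by 1.59 on the log2 scale (0.39, adjusted p = 0.0233). Il1rn was counted 0, 2 and 0 times in sham and 27, 53 and 70 times in DOCA-salt macrophages, or 1.13 and 16.4 CPM over the pooled mice, a ratio of 14.5 (95% exact interval 3.95 to 121, counting error only). With 2 of the sham mice at 0 the fitted log2 change of 3.69 (0.74, adjusted p = 0.00600) depends on the prior count.

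The receptors moved less in macrophages. Tnfrsf1a had 44.7, 42.9 and 36.5 CPM in sham and 57.7, 61.9 and 55.0 CPM in DOCA-salt mice, without overlap, but with an adjusted p of 0.252 (log2 0.41, standard error 0.19). Tnfrsf1b had 32.1, 50.4 and 38.5 CPM against 56.2, 67.5 and 58.3 CPM, also without overlap, with an adjusted p of 0.168 (log2 0.54, 0.21). Groups did not overlap for 24.8% of all genes tested in macrophages. Il1r1 and Il18 overlapped between groups (adjusted p = 0.735 and 0.939). Without Sham 1 the calls of Il10 (adjusted p = 0.0991) and Il1rn (0.0645) were lost, and that of Il10 also without Sham 2 (0.0633) or DOCA-salt 3 (0.0797), where Il1rn was too low to be tested, which left 3 calls. Summed over all myeloid classes, Il1b (log2 -0.47, adjusted p = 0.0931) and Il10 (0.74, adjusted p = 0.273) were no longer called and Tnf, Il1a and Il1rn were, when 3.85% of all genes were.

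**Figure D2:**
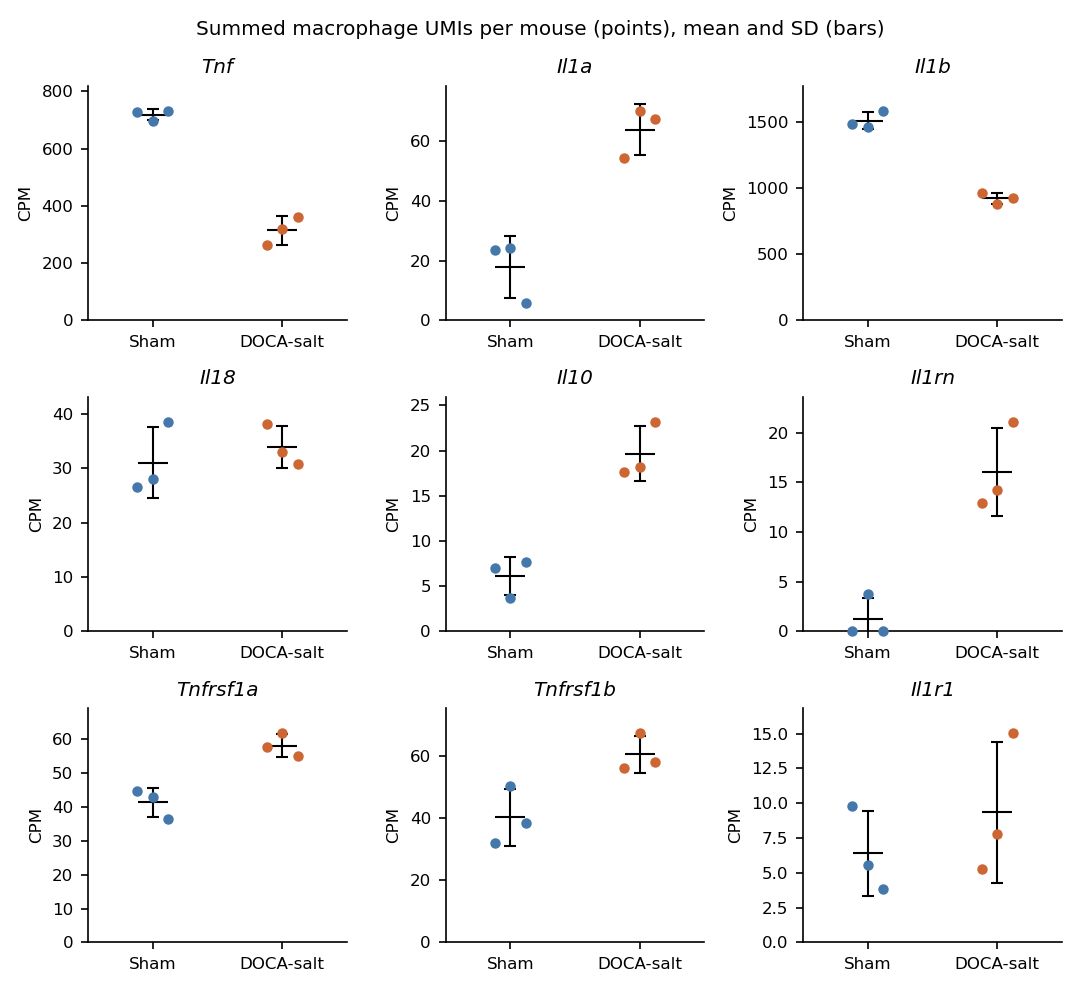
Level of each gene in macrophages in CPM, 1 point for each mouse, with the mean and SD of 3 mice as lines. Tnf and Il1b are lower and Il1a, Il10 and Il1rn higher in all 3 DOCA-salt mice compared with every sham mouse, while Il18 and Il1r1 overlap.

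The share of macrophages with at least 1 UMI was compared after thinning each cell to 1000 UMIs, which left out 22 sham and 258 DOCA-salt macrophages. Tnf was then present in 44.4, 41.1 and 41.6% of sham and in 19.7, 22.3 and 23.7% of DOCA-salt macrophages. Il1b was present in 54.4, 56.0 and 57.5% and in 33.5, 33.9 and 35.1%. Both shares were lower in every DOCA-salt mouse. The Il10 share was 0.502% in sham and 1.36% in DOCA-salt mice, the Il1rn share 0.0760% and 0.795%, and the Tnfrsf1b share 3.69% and 5.73%, all without overlap. The Tnfrsf1a share was 4.53% and 5.92%, also without overlap, and in the proximal tubule, which also expresses it, 1.07% and 2.08%. The Il1a share overlapped, at 1.44 ± 0.918% and 2.35 ± 0.318%, and no difference in how many macrophages held Il1a was detectable at this depth. At 500 UMIs per cell, where no macrophage was left out, the Il1a share did not overlap, at 1.11, 0.772 and 0.236% in sham and 1.17, 1.63 and 1.14% in DOCA-salt mice (exact permutation p = 0.1, the smallest possible), and 7 of the 9 genes were without overlap, beside 24.6% of all genes at that depth. For each of the 6 genes without overlap the exact permutation test gave p = 0.1, two-sided, the smallest that 3 against 3 mice allow (0.15 after adjustment over the 9 genes), and 24.4% of genes did not overlap at 1000 UMIs. For comparison, in the proximal tubule, where Il1b also passed the test (below) and which is therefore no clean background for it, the thinned share was 0.0232% in sham and 0.0974% in DOCA-salt mice for Tnf and 0.0616% and 0.267% for Il1b, at median depths of 9641.5 and 10069 UMIs per cell against 3869.5 and 4556 UMIs in macrophages. Unthinned shares in macrophages were 70.4% and 48.5% for Tnf and 74.8% and 49.3% for Il1b.

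Different macrophage clusters prevailed in the groups. A cluster led by Ccl4, Mmp13 and Ccl3 held 66.0% of sham macrophages (284 of 430) and 5.34% of DOCA-salt macrophages (99 of 1855), and it held 81.3% of the Tnf and 74.7% of the Il1b UMIs of sham macrophages. A cluster led by C1qc, C1qa and H2-Aa held 14.7% and 39.6% of macrophages. In the cluster led by Ccl4, Tnf reached 882 ± 35.9 CPM in sham and 791 ± 70.2 CPM in DOCA-salt mice (adjusted p = 0.80), against a change from 717.7 to 314 CPM over all macrophages. In the cluster led by C1qc, Il1b went from 1950 ± 183 to 1122 ± 23.8 CPM (log2 -0.78, adjusted p = 0.119) and Tnf from 453 ± 213 to 288 ± 44.7 CPM (log2 -0.76, adjusted p = 0.183). Il1b in the cluster led by Ccl4 went from 1668 ± 180 to 1255 ± 337 CPM (log2 -0.51, unadjusted p = 0.0325, adjusted p = 0.461 by edgeR). Tnf in the cluster led by Lyz2 went from 245 ± 149 to 101 ± 75.0 CPM (log2 -1.37, adjusted p = 0.646), a difference as large as over all macrophages but with a standard error of 0.65. Fitted alone by edgeR, the cluster led by Ccl4, that led by C1qc (63 sham cells) and one led by Lyz2 and Rgs10 gave 0 calls among the 5, 5 and 2 of the 9 genes that had enough counts to be tested, with 0.332%, 0.809% and 0.0798% of all genes called. An unadjusted p below 0.05 was found for 1, 3 and 0 of these genes, beside 9.33%, 9.43% and 7.5% of all genes in the same clusters. Over these 3 clusters together, each with at least 10 cells in every mouse, Tnf and Il1b fell (log2 -1.32 and -0.72, adjusted p = 3.3e-04 and 0.0165), when 4.13% of all genes were called. In that sum the cluster led by Ccl4 gave 104 of 139, 77 of 122 and 103 of 125 cells in sham mice. In DOCA-salt mice it gave 20 of 289, 24 of 408 and 55 of 483, so the mix of clusters still differed. Il1a was lower there but not called (log2 -1.25, adjusted p = 0.167), and Il10 and Il1rn were too low to be tested. Over all alternatives the adjusted p ranged from 9.5e-13 to 0.80 for Tnf and from 3.5e-08 to 0.910 for Il1b.

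In DOCA-salt mice, Il1a and Il1rn were concentrated in a single cluster led by Mmp12, Ccl6 and Cxcl2, which held 3, 1 and 2 sham and 33, 52 and 50 DOCA-salt cells. There this cluster, 7.28% of macrophages, held 541 of the 600 Il1a UMIs of macrophages (90.2%, 350 CPM) and 126 of the 150 Il1rn UMIs (84.0%, 81.5 CPM). In sham mice the cluster led by Ccl4 held most of the few UMIs instead, 24 of 33 for Il1a (72.7%) and both for Il1rn, and the cluster led by Mmp12 held 2 of Il1a (6.06%). In DOCA-salt mice the cluster led by Mmp12 held 25.1% of Il1b and 19.8% of Il10 UMIs, and 1545867 of the 9156548 UMIs of macrophages. Its pooled levels were 1363 CPM for Il1b and 23.3 CPM for Il10, against means of 923.6 and 19.7 CPM over all DOCA-salt macrophages. The ligand and its antagonist were thus found in the same cluster, although not necessarily in the same cells. Il10 was highest in another cluster, led by Ccl8, Ccl7 and Pf4, with 40.7% of its UMIs (74, 48.0 CPM) in 12.8% of DOCA-salt macrophages. The cluster led by Mmp12 was singled out because it held most Il1a UMIs, so a lower Il1a without it follows from that choice. Without it, Il1a went from 17.4 ± 10.0 to 7.64 ± 3.33 CPM (log2 -1.26), given as a description, and Il1rn was too low to be tested. In the same fit Il10 (log2 1.62), Tnf (-1.26) and Il1b (-0.93) were still called, as were 5.5% of all genes.

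**Figure D3:**
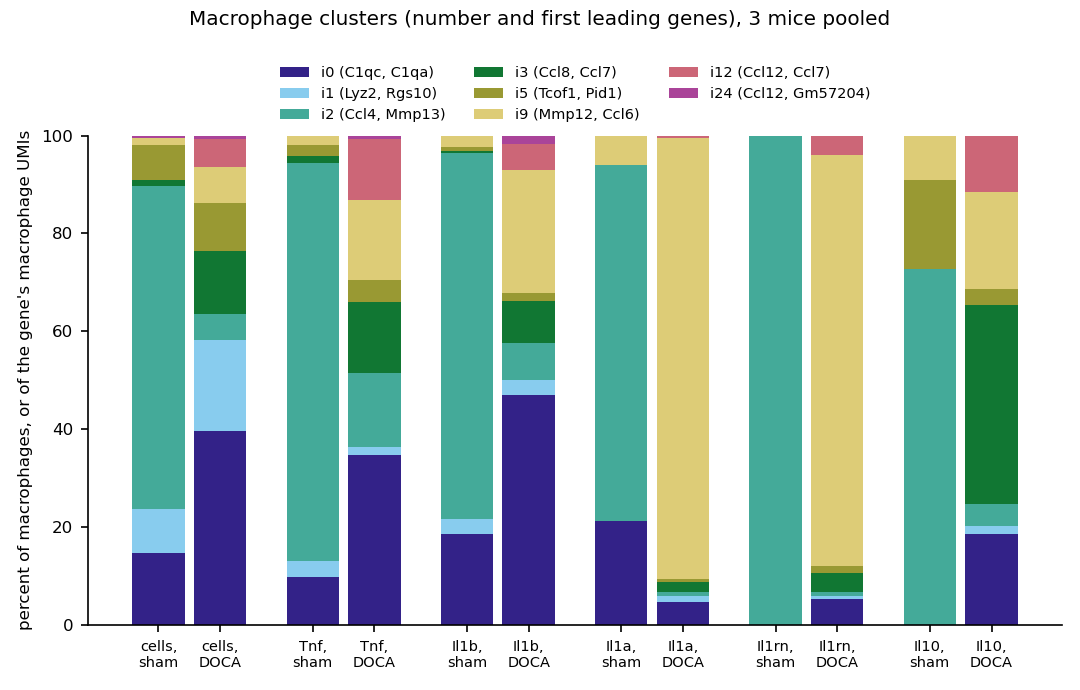
Share of macrophages in each cluster, and share of the macrophage UMIs of each of 5 genes that each cluster held, in percent, with 3 mice pooled and a sham and a DOCA-salt bar (labelled DOCA) for each. The cluster led by Ccl4 fills most of the sham bars for cells, Tnf and Il1b, and the cluster led by Mmp12 holds 90.2% of Il1a and 84.0% of Il1rn in DOCA-salt mice.

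Set against its ligands, Il1rn amounted to 0, 2.51 and 0 UMIs per 1000 UMIs of Il1a and Il1b in the macrophages of sham mice and 12.6, 14.9 and 21.3 in those of DOCA-salt mice. The difference of the means was 15.4, with every DOCA-salt mouse higher (exact permutation p = 0.1, two-sided, the smallest possible). Over the 3 clusters with at least 10 cells in every mouse, which leave out the cluster led by Mmp12, the difference was 1.29 and the groups overlapped (exact permutation p = 0.3).

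Some other values moved with the macrophage results. In macrophages, 3 of the 21 genes of a list that responds to tissue dissociation were lower in DOCA-salt mice, and Ier3 was higher (log2 0.99). The 3 were the heat shock genes Dnajb1 (log2 -1.31), Hspa1a (-0.81) and Hsp90aa1 (-0.71). Of all genes tested 2.99% were lower and 3.07% higher. The list median was -0.24 on the log2 scale, against 0.01 for all genes. The summed list overlapped, at 27147 to 39812 CPM in sham and 26072 to 34259 CPM in DOCA-salt mice. The 16 proximal tubule markers summed to 4129 to 6882 CPM in sham and 2229 to 3361 CPM in DOCA-salt macrophages. Thin limb markers were lower as well (41.9 to 57.7 against 33.8 to 41.0 CPM). Higher without overlap in DOCA-salt macrophages were the summed markers of neutrophils (7 genes, 1 at 0; 26.1 to 33.5 against 53.9 to 62.6 CPM), monocytes (80.8 to 160.5 against 175 to 203 CPM), fibroblasts (0 to 1.92 against 18.6 to 34.0 CPM), cycling cells (8.38 to 17.3 against 29.6 to 55.3 CPM) and smooth muscle cells or pericytes (35.4 to 46.2 against 46.6 to 56.5 CPM). The part of these transcripts in the changes of the 9 genes in macrophages was not tested.

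In endothelial cells, Tnfrsf1a was the only one of the 9 genes to pass the test, beside 8.48% of the 12747 genes tested (5.1% higher). It had 115, 135 and 104 CPM in sham and 166, 170 and 159 CPM in DOCA-salt mice. The DOCA-salt mice lay close together and above all sham mice, and Tnfrsf1a rose by 0.51 on the log2 scale (0.12, adjusted p = 0.0228). Il1r1 had 23.5, 27.9 and 20.4 CPM against 31.8, 33.4 and 31.8 CPM, without overlap (25.9% of all genes) but not past the threshold (log2 0.46, 0.15, adjusted p = 0.0836). Tnfrsf1b, Tnf and Il1b overlapped between groups, and Il1a, Il18, Il10 and Il1rn were too low to be tested, with Il10 at 2, 3 and 2 UMIs against 9, 9 and 12. Tnfrsf1a lost its call without any single mouse but Sham 2 (adjusted p 0.0739 to 0.122), and without Sham 2 Il1b and Il1r1 were called as well (0.0302 and 0.0230), as were 15.1% of all genes. In the endothelial cells of DOCA-salt mice the summed markers of macrophages (44.1 to 50.1 against 104 to 111 CPM, none of 8 at 0), fibroblasts (7.86 to 9.20 against 35.3 to 76.3 CPM), dendritic cells (107 to 140.0 against 223 to 253 CPM) and cycling cells (7.84 to 21.3 against 36.2 to 74.0 CPM) were higher without overlap, and those of thin limb (1267 to 2103 against 723 to 1098 CPM) and connecting tubule (287 to 616 against 182 to 211 CPM) lower. The 14 endothelial markers themselves were also higher without overlap (10425 to 11590 against 13178 to 13978 CPM). The part of all these markers in the endothelial values was not tested.

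In tubular cells, 5 of the 9 genes rose: Tnf, Il1b, Il1rn and both TNF receptors, beside 4.68% of the 18125 genes tested (7.13% in either direction). All 5 were low except Tnfrsf1a. Tnfrsf1a had 14.7, 18.0 and 14.5 CPM in sham and 24.5, 26.3 and 25.5 CPM in DOCA-salt mice, and rose by 0.65 on the log2 scale (0.11, adjusted p = 0.0133). Tnfrsf1b had 0.163, 0.0508 and 0.127 CPM against 0.412, 0.631 and 0.611 CPM (log2 2.17, 0.39, adjusted p = 0.0169). The receptor levels of all DOCA-salt mice lay above those of all sham mice.

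Tnf had 0.855, 0.407 and 0.524 CPM in the tubular cells of sham mice and 1.38, 2.82 and 1.87 CPM in those of DOCA-salt mice (log2 1.70, 0.34, adjusted p = 0.0260). Il1b had 0.930, 0.373 and 0.633 CPM against 1.62, 3.45 and 2.35 CPM (log2 1.87, 0.37, adjusted p = 0.0240). Neither gene overlapped between groups. Il1rn was counted 2, 3 and 6 times against 36, 33 and 15 times, without overlap in CPM (log2 2.70, 0.48, adjusted p = 0.0163). Il18, whose UMIs are mostly tubular, had 3.38, 2.93 and 3.69 CPM in sham and 2.59, 2.67 and 2.79 CPM in DOCA-salt mice, lower without overlap but not past the threshold (log2 -0.36, 0.15, adjusted p = 0.200). Groups did not overlap for 28.4% of all genes. Il10 (lower without overlap, adjusted p = 0.394) and Il1r1 (0.846) were not called, and Il1a was too low to be tested.

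Macrophage transcripts moved with these values. The 8 macrophage markers, none at 0, summed to 17.5 to 21.1 CPM in the tubular cells of sham and to 38.3 to 50.6 CPM in those of DOCA-salt mice, and 13.1% and 32.0% of tubular cells held at least 1 of their UMIs. Per 1000 marker UMIs there were 35.9 and 55.8 Il1b UMIs in tubular cells, against 130.8 and 67.1 in macrophages, and 33.1 and 45.8 Tnf UMIs, against 62.3 and 23.5. In tubular cells without a marker UMI, Il1b (log2 1.99, adjusted p = 0.00587) and Tnfrsf1a (0.63, adjusted p = 0.0210) still rose, when 4.83% of all genes were called, whereas Tnf (1.09, adjusted p = 0.0664) and Tnfrsf1b (2.18, adjusted p = 0.102) were no longer called and Il1rn was too low to be tested. These markers track transcripts of other myeloid cells less well than those of macrophages. In DOCA-salt mice they averaged 222 CPM in neutrophils, 1041 CPM in dendritic cells and 1491 CPM in monocytes, against 13690 CPM in macrophages. In sham mice 33.5% of intercalated and 7.81% of distal convoluted tubule cells held a marker UMI, and the source of these UMIs was not tested. Neutrophils and dendritic cells of DOCA-salt mice held 20750 and 1062 Il1b UMIs per 1000 marker UMIs. Whether tubular cells themselves held the Il1b was not tested. A single tubular cell held up to 23 Il1b UMIs in sham and 47 in DOCA-salt mice. Also higher without overlap in DOCA-salt tubular cells were markers of fibroblasts (2.25 to 5.25 against 17.6 to 55.8 CPM) and endothelial cells (25.2 to 37.9 against 42.0 to 139 CPM). So were those of monocytes (29.4 to 31.0 against 47.8 to 53.1 CPM), smooth muscle cells or pericytes, cycling cells and urothelial cells. Proximal tubule, thin limb, connecting tubule and principal markers were lower without overlap. The part of these transcripts in the tubular values was not tested. Without Sham 1, 3 of the 5 calls were left (Tnf, Il1b and Tnfrsf1b), and without Sham 3 or DOCA-salt 3 only 1, Il1rn, with adjusted p between 0.0538 and 0.0836 for the others.

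**Figure D4:**
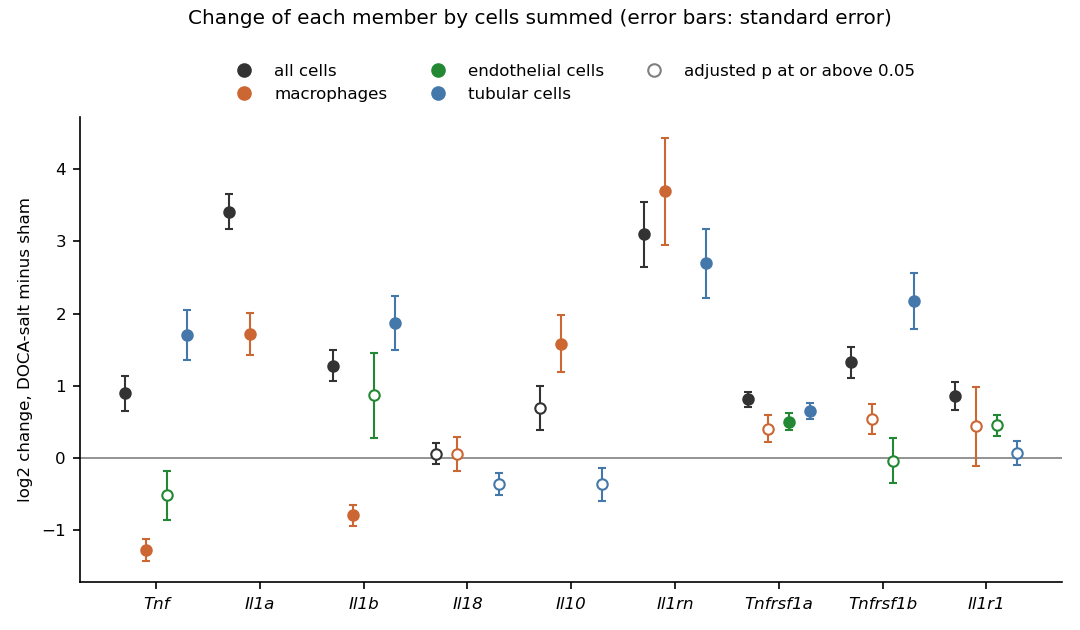
Log2 change of each gene, DOCA-salt minus sham, in 4 kinds of sum (all cells, and the macrophages, tubular cells or endothelial cells alone), with the standard error as bars and open points where the adjusted p was at or above 0.05. Tnf and Il1b lie above 0 over all cells and in tubular cells and below 0 in macrophages, while the Tnfrsf1a points all lie above 0.

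Of 117 pairs of a gene and another cell type, 13 types each with at least 10 cells in every mouse, 41 had enough counts to be tested and 9 passed the test (6.91% of all pairs of a gene and a type were called). By edgeR 19 of the 41 had an unadjusted p below 0.05, as did 19.5% of all pairs. Tnf rose in connecting tubule and principal cells, which are among the distal cells that answer to mineralocorticoids, and a link to that was not tested. In connecting tubule cells Tnf was counted 1, 2 and 2 times in sham and 19, 27 and 9 times in DOCA-salt mice, or 0.744, 1.33 and 1.18 CPM against 12, 18.9 and 10.9 CPM. Every DOCA-salt mouse was higher, and Tnf rose by 3.41 on the log2 scale (0.51, adjusted p = 1.8e-04), in a cell type where 24.6% of genes were called. In principal cells Tnf was counted 6, 0 and 7 times against 28, 26 and 17 times, or 2.72, 0 and 3.55 CPM against 16.4, 12.3 and 9.25 CPM. The groups did not overlap, and the log2 change was 2.64 (0.54, adjusted p = 0.0104), with 7.72% of genes called. Genes of the dissociation list moved in the same cells, 4 of 21 higher and 6 lower in connecting tubule (median log2 -0.27) and 3 higher and 0 lower in principal cells (median 0.21), and their part in the Tnf values was not tested.

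The number of cells with a Tnf UMI was small. They were 4 of 526 connecting tubule cells in sham (0.760%) and 25 of 286 in DOCA-salt mice (8.74%), and 17 of these 25 also held a macrophage marker UMI, as did 40.2% of all connecting tubule cells of DOCA-salt mice. Of the principal cells, 8 of 692 held Tnf in sham (1.16%) and 28 of 481 in DOCA-salt mice (5.82%), of which 10 held a marker UMI. In principal cells without a marker UMI, Tnf still rose from 2.34 ± 2.06 to 14.4 ± 4.93 CPM (log2 2.66, adjusted p = 0.0108, 5.95% of genes called). In connecting tubule cells without a marker UMI, Tnf had 0.866 ± 0.808 CPM in sham and 7.95 ± 0.780 CPM in DOCA-salt mice, but with 3 and 13 UMIs it was too low to be tested. The share of cells with a Tnf UMI was 0.317% and 0.922% in the proximal tubule and 0.226% and 0.266% in the thick ascending limb. In the thin limb Tnf had 3.97, 5.26 and 2.64 CPM in sham and 4.88, 12.7 and 24.0 CPM in DOCA-salt mice, overlapping and not called, with up to 27 UMIs in 1 cell.

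**Figure D5:**
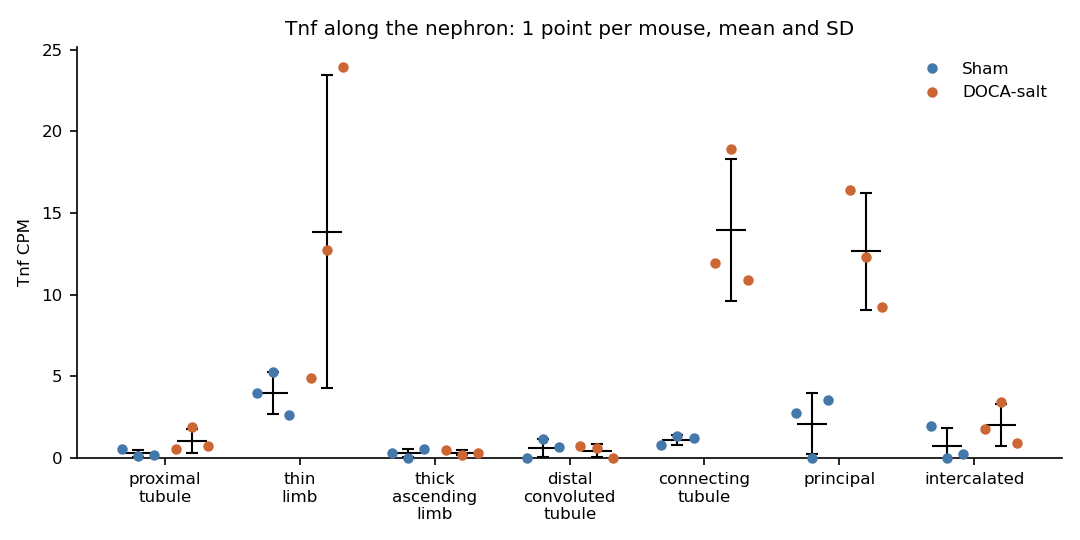
Tnf level in 7 tubular cell types in CPM, 1 point for each mouse, with the mean and SD of 3 mice as lines. Connecting tubule and principal cells of DOCA-salt mice lie at 9.25 to 18.9 CPM, above all sham mice, and the thin limb spreads from 4.88 to 24.0 CPM.

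The proximal tubule, which takes up most of the filtered sodium, gave 4 of the 9 calls, with 9.4% of its genes called. Tnfrsf1a went from 9.83, 13.8 and 9.78 CPM to 21.0, 23.6 and 23.6 CPM (log2 0.93, 0.16, adjusted p = 0.0133). Il1r1 went from 0.259, 0.205 and 0.245 CPM to 0.715, 2.19 and 0.854 CPM (log2 2.30, 0.47, adjusted p = 0.0259). Both receptors were higher in every DOCA-salt mouse, and DOCA-salt 2 was far above the others for Il1r1. In the tubular sum DOCA-salt 2 was also highest for the fibroblast and endothelial markers (above), whose part in the receptor values was not tested. Tnfrsf1b (log2 2.56, adjusted p = 0.0195) and Il1b (1.79, adjusted p = 0.0382) also rose, both at low levels. Tnfrsf1b had 0.0809 ± 0.0578 CPM in sham and 0.545 ± 0.111 CPM in DOCA-salt mice, and Il1b 0.658 ± 0.321 and 2.47 ± 1.11 CPM. In proximal tubule cells without a macrophage marker UMI, Il1b, Tnfrsf1a and Il1r1 were still called (log2 1.93, 0.91 and 2.08) and Tnfrsf1b was not (2.39, adjusted p = 0.0608), when 7.19% of all genes were. The limit given above for tubular cells without a marker UMI holds here too. Cycling cells gave the remaining 3, Tnf (log2 4.24), Il1b (2.84) and Tnfrsf1a (1.73), with 10.9% of genes called, in cells whose macrophage markers averaged 51.6 CPM in sham and 981 CPM in DOCA-salt mice and where 5 of 21 genes of the dissociation list were higher (median log2 0.38).

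In the other types 0 of the genes tested were called by edgeR, with an unadjusted p below 0.05 for 2 in intercalated cells and 1 each in T cells, dendritic cells, monocytes, the thick ascending limb and the thin limb. The genes with enough counts to be tested were 1 gene in the distal convoluted tubule (7.57% of all genes called), 3 in intercalated cells (5.92%), 3 in T cells (1.74%), 2 in the thick ascending limb (1.58%), 2 in smooth muscle cells or pericytes (0.831%), 4 in the thin limb (0.643%), and 5 in dendritic cells and 3 in monocytes (0% in both). In B cells 0 of the 9 genes could be tested, so no call was possible there. In T cells, Il1r1 had 20.9, 69.2 and 41.6 CPM in sham and 133, 71.4 and 175 CPM in DOCA-salt mice, with DOCA-salt 2 just above the highest sham mouse, at an adjusted p of 0.0508. The fibroblasts of DOCA-salt mice, not tested for want of sham cells, had 71.0, 102 and 113 CPM of Il1r1 and 120, 105 and 121 CPM of Tnfrsf1a. 

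Changes in macrophages were compared directly with those in tubular and endothelial cells, in 1 edgeR fit with the mouse as a block. The change in macrophages minus that in tubular cells was -2.88 on the log2 scale for Tnf (standard error 0.20, adjusted p = 7.1e-34), -2.55 for Il1b (0.21, adjusted p = 1.5e-25) and -1.53 for Tnfrsf1b (0.49, adjusted p = 0.0380), and 2.01 for Il10 (0.62, adjusted p = 0.0274). These 4 genes stand beside 5.47% of all genes. The standard error of 0.20 for Tnf was below that of the tubular change alone (0.34). P-values this small therefore do not reflect the spread between 6 mice alone. Against endothelial cells, Il1b differed by -1.54 (0.47, adjusted p = 0.0402), with 6.08% of genes called, and the other 8 genes did not pass the test. Without Sham 2, Sham 3 or DOCA-salt 3 only Tnf and Il1b, 2 of the 4, still differed from tubular cells, and without Sham 1, Sham 3 or DOCA-salt 1 the number differing from endothelial cells was 0. Without DOCA-salt 3 the gene differing from endothelial cells was Il1a in place of Il1b. Tnfrsf1a changed by amounts that did not differ detectably between macrophages and tubular cells (-0.19, 0.23, adjusted p = 0.788) or endothelial cells (0.03, 0.20, adjusted p = 0.972).

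The other genes of the pathways were described as lists. Over all cells, 7 of 18 tested genes of the IL-1 family rose and 0 fell, with a median log2 change of 0.41 against -0.02 for all genes, and beside 11.5% of all genes higher. Il36a, an epithelial IL-1 family ligand, rose most (log2 5.42, from 0.0299 to 1.5 CPM), followed by Il1rl1, the IL-33 receptor (2.61), and Il33 (2.13). Of genes for processing and release of IL-1β and IL-18, 6 of 11 rose, with Nlrp3, an inflammasome sensor, at 1.82, Nlrp1b at 1.62 and Casp4 at 1.34, and a list median of 0.93. The lists of TNF receptor signalling (5 of 16 higher, Traf1 at 0.98, Ripk3 at 0.93 and Tnfaip3 at 0.84, median 0.33), NF-kappaB (3 of 16, Nfkbie at 0.90, Nfkb1 at 0.63 and Nfkbiz at 0.55, median 0.14) and IL-10 signalling (3 of 7, Il10ra at 1.40, Bcl3 at 0.79 and Socs3 at 0.65, median 0.37) had no lower gene. The 3 of 16 for NF-kappaB are near the share of all genes.

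In macrophages few of these genes moved, where 3.07% of all genes were higher and 2.99% lower. Of the IL-1 family, 1 of 13 genes fell and 0 rose: Il1r2, the decoy receptor that binds IL-1 without signalling, went from 71.2 ± 14.7 to 31.9 ± 9.32 CPM (log2 -1.19, adjusted p = 0.00696). For IL-10 signalling 3 of 7 rose, namely Socs3 (log2 0.89), Stat3 (0.76) and Il10rb (0.76), with a list median of 0.76 against 0.01 for all genes. Traf3 (0.59) was the call among 15 TNF signalling genes (median 0.08) and Pycard (0.61) among 10 processing genes (median -0.04), single calls that are no result about these lists. Of 15 NF-kappaB genes 0 were called by edgeR, and 2, Nfkb1 (log2 -0.41) and Rel (-0.41), named after their values were seen, had an unadjusted p below 0.05, as did 18.8% of all genes (list median -0.07).

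In tubular cells, where 4.68% of all genes were higher and macrophage markers were higher too (above), 4 of 17 IL-1 family genes rose, Il36a (log2 5.39), the IL-18 receptor subunits Il18rap (4.11) and Il18r1 (1.65), and the inhibitor Il18bp (0.80), with a median of 0.12. Processing genes rose in 3 of 7 cases, Nlrp3 (2.42), Casp4 (2.10) and Pycard (0.38), with a median of 0.38, and NF-kappaB genes in 2 of 16, Nfkbie (0.94) and Nfkbiz (0.56), with a median of 0.08. Of 16 TNF signalling genes 0 were called by edgeR in tubular cells, with an unadjusted p below 0.05 for 7, as for 22.9% of all genes (median 0.23). Bcl3 (0.69) was the call among 7 IL-10 genes (median 0.15), and the median of all genes was -0.01. In tubular cells without a macrophage marker UMI, Il36a (log2 4.46), Il18r1 (1.45), Il18bp (0.82), Nlrp3 (2.52), Casp4 (1.92) and Nfkbiz (0.48) were still called. Pycard (0.37, adjusted p = 0.0661), Bcl3 (0.58, adjusted p = 0.0644) and Nfkbie (0.68, adjusted p = 0.158) were not, and Il18rap was too low to be tested.

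By the Pearson correlation of log2(CPM + 1) over 19 cell types, the genes most like each of the 9 were as follows, as a description over types that share libraries and differ in depth. Tnf was nearest to Glipr1 (0.93), Fbxw11 (0.93) and Actr3 (0.92), and Il1b to Clec7a (0.98), Bcl2a1a (0.98) and Lrrc25 (0.98). Il1a was nearest to Gm40932 (0.95), Trpm2 (0.94) and Gpr84 (0.93), and Il1rn to Slc7a11 (0.94), Gm32673 (0.93) and Pira12 (0.92). Il18 was nearest to Sh3bp2 (0.87), Tnni2 (0.87) and Basp1 (0.86), and Il10 to Tbc1d23 (0.92), Rtf2 (0.92) and Gm57471 (0.91). Of the receptors, Tnfrsf1b was nearest to Apbb1ip (0.98), Cd84 (0.97) and Samsn1 (0.97), Tnfrsf1a to Ifitm2 (0.88), Gm56599 (0.86) and Arhgap23 (0.86), and Il1r1 to Arhgef10 (0.86), Stam2 (0.79) and Phlda1 (0.72). None of these named genes was nearest to more than 1 of the 9.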

How the data were processed

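The count tables were deposited as 1 matrix for each of 6 libraries (10x Genomics droplets), holding raw UMI counts per gene and barcode that the authors made with Cell Ranger, version 9.0.0 per the submitters' processing notes, although the file headers name an earlier release. The notes also name Seurat 4.0.0 and R 4.0.3. The strand setting of the counting is not given in the sources used here.

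Barcodes with at least 500 UMIs and 170 genes, at most 50% mitochondrial and 5% hemoglobin UMIs were kept, which left 55630 of 76774 barcodes after the 4931 highest Scrublet scores (0.8% of barcodes per 1000 barcodes) were removed. DoubletFinder and Harmony were not used here. Cells were clustered in scanpy 1.11.5 (2000 variable genes, 30 components, 15 neighbors, Leiden resolution 1, immune cells clustered again) without the 9 genes and the pathway lists, apart from the dissociation list. Clusters were named from fixed markers (at least 3 detected), and 7523 cells stayed unnamed.

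For each mouse, UMIs were added up over the cells of a type with at least 10 cells in every mouse, and tested with edgeR 4.0.16 (TMM, filterByExpr, quasi-likelihood F test, Benjamini-Hochberg adjustment over all genes) in R 4.3.3. Shares and the Il1rn ratio were compared by exact permutation tests over mice. The ratio was kept linear, since its log2 is infinite where Il1rn is 0. Counting intervals cover counting error only. The scripts were tested on simulated data. Alternatives were DESeq2 1.42.0 (size factors and Wald test), library size scaling, no filter, the replicate block, leaving out each mouse, other cell filters and clusterings, and other cells summed. Named genes were the 9 genes, up to 3 called genes in each direction of each list in all cells, macrophages or tubular cells, and the 3 genes most correlated with each of the 9. The 9 genes and the lists were chosen with earlier results of these data known.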

Additional observations from a re-analysis of the deposited data

Results flagged for a closer look

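The change of Tnf in macrophages minus that in tubular cells was -2.88 on the log2 scale, that of Il1b -2.55, that of Tnfrsf1b -1.53 and that of Il10 2.01, in an edgeR test of the difference itself. With 1 mouse left out, Il10 kept its call only without DOCA-salt 2, and Tnfrsf1b only without Sham 1 or DOCA-salt 1. Against endothelial cells the difference for Il1b was -1.54, which with 1 mouse left out kept its call only without Sham 2 or DOCA-salt 2. Tnf and Il1b were lower in macrophages and higher in tubular cells in each DOCA-salt mouse, without overlap between the groups. The cause was not tested.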

How the results depend on the processing

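Alternatives that restrict cells to single clusters, leave out the cluster with most Il1a UMIs or the fibroblasts, or keep tubular cells without macrophage marker UMIs were chosen after seeing the data. Calls of all genes moved as well and are given as percent of the genes tested. Of the 9 genes, 7 were called over all cells (17.2% of all genes) and 5 to 8 when a mouse was left out (8.66 to 23.2%). In macrophages the 5 calls became 3 to 5 when a mouse was left out (2.7 to 6.28% of all genes, against 6.06%), 2 in the clusters with 10 cells in every mouse (4.13%), 3 with all myeloid classes (3.85%), 3 without the cluster with most Il1a UMIs and 0 in each single cluster (fewer cells and genes tested). In endothelial cells the 1 call (8.48%) became 0 to 3 when a mouse was left out (3.54 to 15.1%) and 3 without doublet removal (8.92%), and in tubular cells the 5 calls (7.13%) became 1 to 5 (2.26 to 10.3%) and, without marker UMIs, 2 (4.83%). In other cell types the 9 calls among 41 tested pairs (6.91% of all pairs of a gene and a type) became 6 to 10 among 42 to 51 pairs (3.49 to 9.2%), and 20 among 108 pairs without a filter on low counts (5%). The 4 differences from tubular cells (5.47%) became 2 to 3 when a mouse was left out (3.28 to 4.96%) and the 1 from endothelial cells (6.08%) 0 to 1 (3.55 to 5.32%). The Il1rn ratio difference of 15.4 became 12.9 to 17.2, and 1.29 in the clusters with 10 cells in every mouse.

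The replicate numbers did not pair the mice: deviations of mice with the same number correlated at -0.04, -0.65 and -0.14 over 16653 genes. With the replicate number as a block, 6 calls were left over all cells (10.4% of all genes), 3 in macrophages (2.75%), 0 in endothelial cells (3.19%), 0 in tubular cells (2.04%) and 5 in other cell types (3.8%).

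Directions reversed only for values that were not called in that setting. Il18 over all cells was -0.27 without macrophages and -0.44 without immune cells, and -0.0063 to 0.13 when a mouse was left out. Il10 over all cells was -0.067 and -0.052 without macrophages or immune cells. In macrophages Il18 ranged from -0.10 to 0.27 when a mouse was left out, Il1r1 was -0.054 with all myeloid classes, and Il1a was -1.25 in the clusters with 10 cells in every mouse and -1.26 without the cluster with most Il1a UMIs, which was chosen by Il1a itself. Tnfrsf1b in endothelial cells ranged from -0.34 to 0.16 when a mouse was left out and was 0.34 without doublet removal. Il1r1 in tubular cells ranged from -0.041 to 0.23, and was -0.059 at a mitochondrial limit of 20% and -0.10 without marker UMIs. The cause was not tested. Il1rn, Il10 and Il1a rested on 2, 11 and 33 UMIs in sham macrophages, which limits their precision.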
